A study of Homo sapiens with 1 sample.

Results

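Annexins and S100 proteins are the 2 calcium-binding gene families described here, in human cells on their way from embryonic stem cells to neural progenitor cells (NPCs). The genes were 4 annexins (ANXA1, ANXA2, ANXA3 and ANXA5) and 5 S100 genes (S100A6, S100A10, S100A11, S100A13 and S100A16), that is, 9 of the 33538 genes listed in the count table. They were chosen with their levels in this same library known. Their level in cells with many TAGLN transcripts, and in cells with almost no mitochondrial transcripts, had been seen before the choice, so every difference along those measures is a description and was not tested. All 9 genes were found, and each held more than 200 unique molecular identifiers (UMIs, 1 per captured transcript). Together they made up 335787 UMIs, or 0.107% of the UMIs of the cells kept.

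The study asked how HAR123, a human accelerated region within the SMG6 gene, bears on the formation of NPCs. The group analysed was hHAR123, genotype WT: H9 cells, a human embryonic stem cell line, that carried the human HAR123 sequence. They were held for 2 days in medium with Rock inhibitor (5 μM), Dorsomorphin (1 μM) and SB431542 (10 μM), then for 5 days as rotating aggregates with the latter compounds, and for 7 days on Matrigel without them. Dorsomorphin and SB431542 block BMP and activin/TGF-β receptors, which favours neural fate. As the methods of the study state, the library mixed separate clones of the genotype, dead cells were removed, and rosettes had not yet been picked. There was 1 library, so no replicate error could be given. Cells of 1 library are not replicates, and all intervals below are 95% intervals for counting error only.

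Annexins share a core that binds acidic phospholipids when calcium is present, which brings them to the inner face of the plasma membrane and to endosomes. S100 proteins are small EF-hand proteins that form dimers and, when they bind calcium, attach to target proteins. The families meet in fixed pairs. S100A10, which no longer needs calcium, binds the amino terminus of ANXA2 to form a heterotetramer that links membranes to actin and to plasminogen at the cell surface, and S100A11 binds the amino terminus of ANXA1. TAGLN encodes transgelin, an actin-bundling protein of contractile cells.

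The promoters of the genes are shown for 4 members: ANXA1 and S100A10, which had the highest ratios of pooled CPM between the extreme TAGLN bands, ANXA2, the partner of S100A10, and ANXA5, the annexin with the lowest ratio. Each run is the 250 bases before the RefSeq start on GRCh38.p14, written 5′ to 3′ on the strand of the gene. The windows are chr9:73151615-73151864 (plus strand) for ANXA1, chr15:60397987-60398236 (minus) for ANXA2, chr1:151993860-151994109 (minus) for S100A10 and chr4:121696981-121697230 (minus) for ANXA5. Capitals mark motif letters found on either strand. The AP-1 motif was searched as TGACTCA. For TEAD the letters were GGAATG. A GC box was taken as GGGCGG. The TATA motif was searched as TATAAA, and the CArG box was searched too. Overlapping matches were each kept, as in ANXA2, where 3 GC boxes overlap.
ANXA1: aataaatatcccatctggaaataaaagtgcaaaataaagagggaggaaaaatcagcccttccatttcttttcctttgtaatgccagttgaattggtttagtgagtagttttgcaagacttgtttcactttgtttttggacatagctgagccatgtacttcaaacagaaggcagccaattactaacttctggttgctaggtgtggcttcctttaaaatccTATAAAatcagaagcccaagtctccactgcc
ANXA2: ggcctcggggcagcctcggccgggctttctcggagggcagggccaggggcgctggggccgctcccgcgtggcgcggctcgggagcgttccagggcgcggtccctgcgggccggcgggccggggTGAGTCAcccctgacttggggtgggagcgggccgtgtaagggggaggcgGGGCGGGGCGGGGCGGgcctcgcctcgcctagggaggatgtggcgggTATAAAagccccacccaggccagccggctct
S100A10: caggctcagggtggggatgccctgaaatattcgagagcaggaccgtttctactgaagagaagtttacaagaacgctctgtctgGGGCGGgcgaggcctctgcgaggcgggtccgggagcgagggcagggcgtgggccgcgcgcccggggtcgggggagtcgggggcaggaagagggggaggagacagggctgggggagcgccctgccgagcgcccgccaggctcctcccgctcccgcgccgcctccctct
ANXA5: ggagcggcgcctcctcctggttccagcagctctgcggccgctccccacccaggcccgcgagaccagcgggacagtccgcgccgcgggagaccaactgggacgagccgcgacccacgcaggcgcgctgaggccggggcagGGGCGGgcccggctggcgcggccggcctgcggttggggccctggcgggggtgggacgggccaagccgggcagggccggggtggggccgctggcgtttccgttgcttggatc
These promoters differed in base composition. The ANXA1 window held 38.4% G and C and no CG pair, and that of ANXA5 held 78.8% and 31 CG pairs, against a median of 58.0% over 35116 RefSeq windows of the same length. TATAAA began 31 bases before the start in both ANXA1 and ANXA2. Over all 12 windows of the 9 genes (S100A13 has 3 and S100A16 has 2), TATAAA was in 3 and in 10.7% of all windows. GGGCGG was in 7 of the 12 and in 42.6% of all. GGAATG was in 1, in S100A16, and in 11.9% of all windows. The AP-1 letters were in 1, that of ANXA2, and in 4.20% of all windows. The CArG box was in none of the 12 and in 1.16% of all windows. A match is a description of the letters and not a bound site.

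The S100 members lie on the minus strand of chromosome 1 (GRCh38, GENCODE 44) between 151982915 and 153631360, a stretch that holds 15 S100 genes. ANXA1 lies on chromosome 9 (73151865 to 73170393), ANXA2 on chromosome 15 (60347134 to 60402883), and ANXA3 (78551747 to 78610451) and ANXA5 (121667946 to 121696995) on chromosome 4. S100A13 overlaps S100A1 on the opposite strand, and S100A11 and S100A6 each overlap an antisense RNA. S100A13 also overlaps, over 5029 bases of its own strand, an unnamed long noncoding RNA that is not in the count table, so reads from the 2 cannot be told apart. The listed overlapping genes held 17, 88 and 3 UMIs, against 29176 for S100A13, 52937 for S100A11 and 25007 for S100A6. The 3 processed pseudogenes of ANXA2 and the 8 of S100A11 named in the annotation were not listed in the count table, so reads shared with them could not be followed.

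The library held 14726 barcodes and 327640709 UMIs, and 13925 cells passed the limits of the study (2000 to 10000 genes and a mitochondrial share below 0.1). Kept cells had a median of 17900 UMIs (3167 to 118188) and a mitochondrial share of 5.16%. The cells were divided by TAGLN UMIs per 10000 UMIs of the cell. The band below 5 held 10695 cells with a median of 16318 UMIs, the band from 5 to 10 held 720 with 22150.5, the band from 10 to 30 held 1096 with 30604.5, and the band above 30 held 1414 with 42034. Depth thus went up with TAGLN, so levels are given as CPM (UMIs per 1000000 UMIs of the band) and also after each cell was thinned at random to 5000 UMIs. The assay counts 3′ ends, 1 UMI per transcript whatever its length, so gene length does not enter the CPM. Reads shared with unlisted pseudogenes or overlapping RNAs can still differ between genes, so orders between genes are those of counted UMIs. The labelled cell type was checked against marker genes. Of the pluripotency genes, POU5F1, TDGF1 and PRDM14 were at 0.102, 0.0051 and 0.010 CPM in the lowest band and NANOG at 0.430 CPM, whereas DPPA4 was at 129 CPM there and 71.7 CPM in the highest, and SOX2, a neural progenitor factor, was at 433 CPM in the lowest band and 130 CPM in the highest. Of 8 neural progenitor genes, 6 were at least 2-fold lower in the highest band than in the lowest, and NES was higher (708 against 212 CPM). All 7 contractile genes other than TAGLN were at least 2-fold higher there.

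Across the TAGLN bands the 9 genes together stood at 358 CPM (356 to 361) in the lowest band, 1084 CPM (1069 to 1099) from 5 to 10, 2032 CPM (2018 to 2046) from 10 to 30 and 2686 CPM (2673 to 2699) in the highest. The ratio of the highest to the lowest band was 7.50 (7.43 to 7.56), and 7.20 (7.06 to 7.36) after thinning. Of the 9 genes, 8 were at least 2-fold higher in the highest band, against 7.03% of the 16297 genes with at least 200 UMIs in both bands together. The genes were chosen on this contrast, so nothing is read from that count. The median ratio was 15.0 over the members and 0.786 over all genes (-0.35 on the log2 scale). The summed ratio was 4.97 between cells of both bands with 20000 to 40000 UMIs, a choice that also changes which cells are compared, and 18.1 as UMIs per cell. The ratios of single genes also differed in cells with 20000 to 40000 UMIs, where the ratio was 26.3 for ANXA1, 22.7 for ANXA3, 14.3 for S100A10, 14.04 for ANXA2, 10.05 for S100A11, 3.77 for S100A6, 3.21 for S100A16, 2.56 for ANXA5 and 1.29 for S100A13, so that S100A10 lay below ANXA3 there. Thinning of all cells to equal depth moved several single ratios up instead. They were 69.8 (61.9 to 78.8) for ANXA1, 50.7 (43.5 to 59.3) for S100A10, 33.3 for ANXA3 and 17.6 for S100A11. S100A16 was then at 7.25, ANXA2 at 19.4, S100A6 at 5.36, ANXA5 at 3.17 and S100A13 at 1.31. In pooled CPM over all cells, ANXA1 ranked 26 from the highest ratio and S100A10 ranked 50, while S100A13 ranked 2723.

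**Figure D1:**
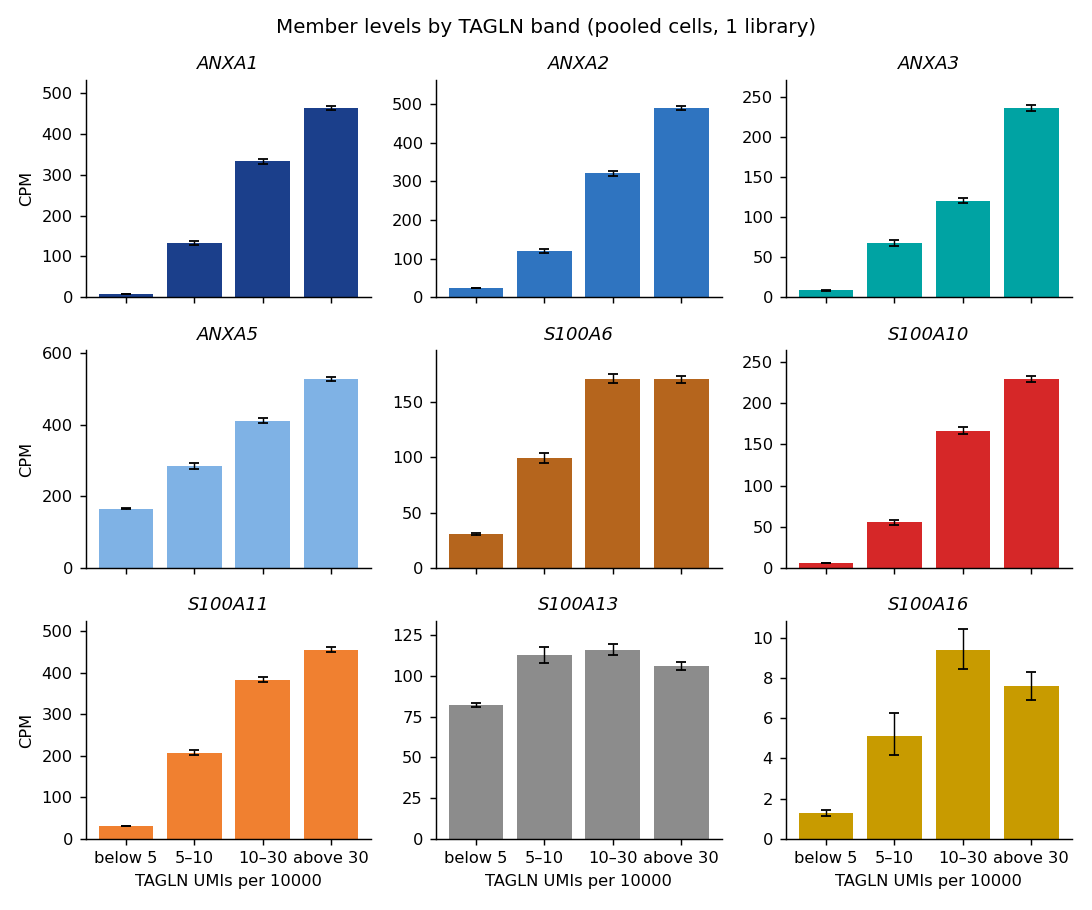
Level of each of the 9 genes, in CPM on a linear axis from 0 with its own scale in each panel, in the 4 bands of TAGLN UMIs per 10000; bars are pooled UMIs of 10695, 720, 1096 and 1414 cells of 1 library and error bars are 95% Poisson intervals. ANXA1, ANXA2, ANXA3, ANXA5, S100A10 and S100A11 were higher in each next band, whereas S100A6, S100A13 and S100A16 had no higher value above 30 than from 10 to 30.

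**Figure D2:**
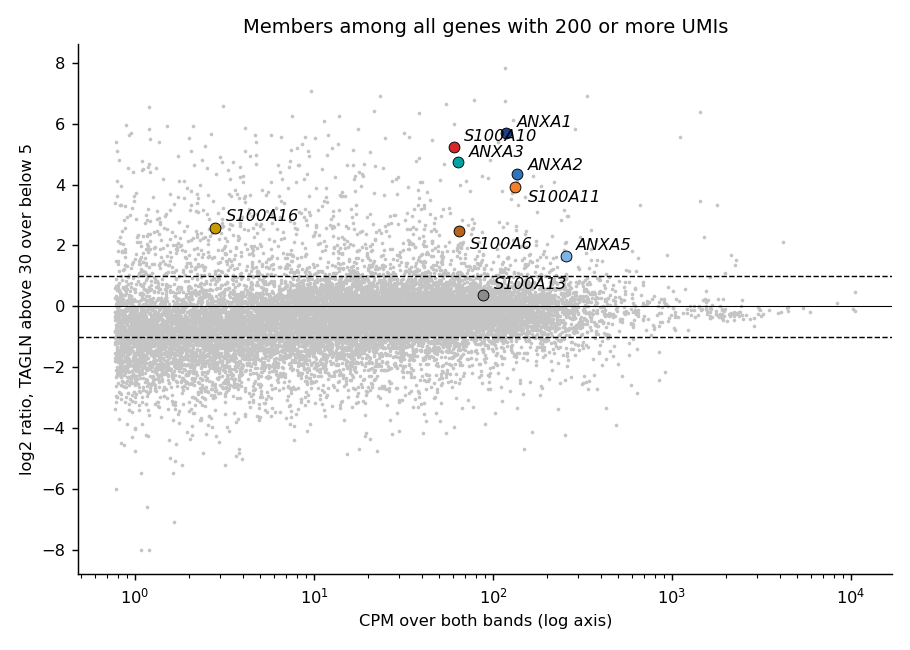
Ratio of the highest to the lowest TAGLN band (log2) against the CPM over both bands (log axis) for the 16297 genes with at least 200 UMIs, with the 9 members as coloured points; dashed lines mark 2-fold. S100A13 is the only member between the dashed lines, and ANXA1 is the highest of the members.

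Among the annexins, ANXA1, which binds formyl peptide receptors and restrains inflammation, had the largest ratio. It was at 8.89 CPM (8.48 to 9.32) in the lowest band, 133 CPM from 5 to 10, 332 CPM from 10 to 30 and 463 CPM (457 to 468) in the highest, a ratio of 52.0 (49.6 to 54.7). ANXA2, which organizes actin at membranes, stood at 24.1 CPM (23.4 to 24.8), 119, 320 and 489 CPM (484 to 495) in the same order, a ratio of 20.3 (19.7 to 20.9). ANXA2 was above ANXA1 in the lowest band, below it from 5 to 30 and again above it in the highest.
ANXA3, a membrane-binding annexin, stood at 8.90 CPM (8.48 to 9.32) in the lowest band, as low as ANXA1, then at 67.4, 121 and 236 CPM (233 to 240). Its ratio was 26.6 (25.3 to 28.0). ANXA5, the annexin used as a probe for exposed phosphatidylserine, was the most abundant member in every band. It stood at 166 CPM (164 to 168), 284, 412 and 528 CPM (523 to 534), a ratio of 3.18 (3.13 to 3.23), and it was found in 89.1% of the cells even in the lowest band.

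The S100 genes spread more widely. S100A10, the partner of ANXA2, was at 6.06 CPM (5.72 to 6.42) in the lowest band, 55.3 from 5 to 10, 167 from 10 to 30 and 229 CPM (226 to 233) in the highest, a ratio of 37.8 (35.7 to 40.2). S100A11, the partner of ANXA1, was at 30.4 CPM (29.6 to 31.2), 207, 383 and 455 CPM (450 to 461), a ratio of 15.0 (14.6 to 15.4). Both were higher in each next band. The ratio of S100A10 was above that of ANXA2 (20.3), and the ratio of S100A11 was below that of ANXA1 (52.0). In cells with 20000 to 40000 UMIs, S100A10 and ANXA2 were close, at 14.3 and 14.04.
S100A6, or calcyclin, was at 30.5 CPM (29.7 to 31.3), 99.2, 171 and 170.5 CPM (167 to 174), a ratio of 5.59 (5.41 to 5.77). Its level did not differ beyond counting error between the top 2 bands (ratio 0.998, 0.967 to 1.03), although after thinning the highest band was above the next by 1.29 (1.17 to 1.42). S100A13, which takes part in the release of FGF1 by a path without a signal peptide, was nearly even across bands, with 81.9 CPM (80.6 to 83.2), 113, 116 and 106 CPM (104 to 109) and a ratio of 1.30 (1.26 to 1.33). S100A16 was the scarcest, at 1.28 CPM (1.13 to 1.45), 5.13, 9.41 and 7.58 CPM (6.91 to 8.29), a ratio of 5.92 (5.07 to 6.93). In the lowest band its order of levels put it last, after S100A10, ANXA1 and ANXA3, whose intervals lay at 5.72 to 6.42, 8.48 to 9.32 and 8.48 to 9.32 CPM, so that ANXA1 and ANXA3 could not be told apart. In the highest band the order was ANXA5, ANXA2, ANXA1, S100A11, ANXA3, S100A10, S100A6, S100A13 and S100A16, and the intervals of ANXA1 and S100A11, and those of ANXA3 and S100A10, overlapped.

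Finer TAGLN steps, chosen after these values were seen, showed that the genes did not share 1 course. In the 6180 cells with no TAGLN UMI, ANXA1 was at 3.13 CPM (2.80 to 3.49), ANXA3 at 2.57 CPM (2.27 to 2.90) and S100A10 at 1.76 CPM (1.51 to 2.04), while ANXA5 was at 150.5 CPM and S100A13 at 77.1 CPM. From 2.5 to 5 TAGLN UMIs per 10000, still in the lowest band, ANXA1 was already at 36.1 CPM (33.4 to 38.9), ANXA3 at 36.3 CPM (33.6 to 39.1) and S100A10 at 27.2 CPM (24.8 to 29.7). Just outside the limit of 30 (20 to 30) the 9 genes together were at 2346 CPM, and just inside it (30 to 60) at 2664 CPM.
At the upper end the annexins parted. ANXA1 was at 490 CPM (484 to 497) from 30 to 60 TAGLN UMIs, 428 CPM (419 to 438) from 60 to 100 and 336 CPM (317 to 356) in the 114 cells above 100. ANXA3 went the other way, with 206 CPM (202 to 210.5), 281 CPM (273 to 288) and 340.5 CPM (321 to 360.5). ANXA3 was thus below ANXA1 in the first of these steps, and their intervals overlapped in the last. S100A10 was level from 30 to 100, at 234 and 235 CPM, and lower above 100, at 146 CPM (134 to 160). S100A11 was at 455, 458 and 445 CPM, which did not differ beyond counting error. After thinning, the same order held for ANXA1 (422, 366 and 297 CPM) and for ANXA3 (209, 285 and 345 CPM).

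**Figure D3:**
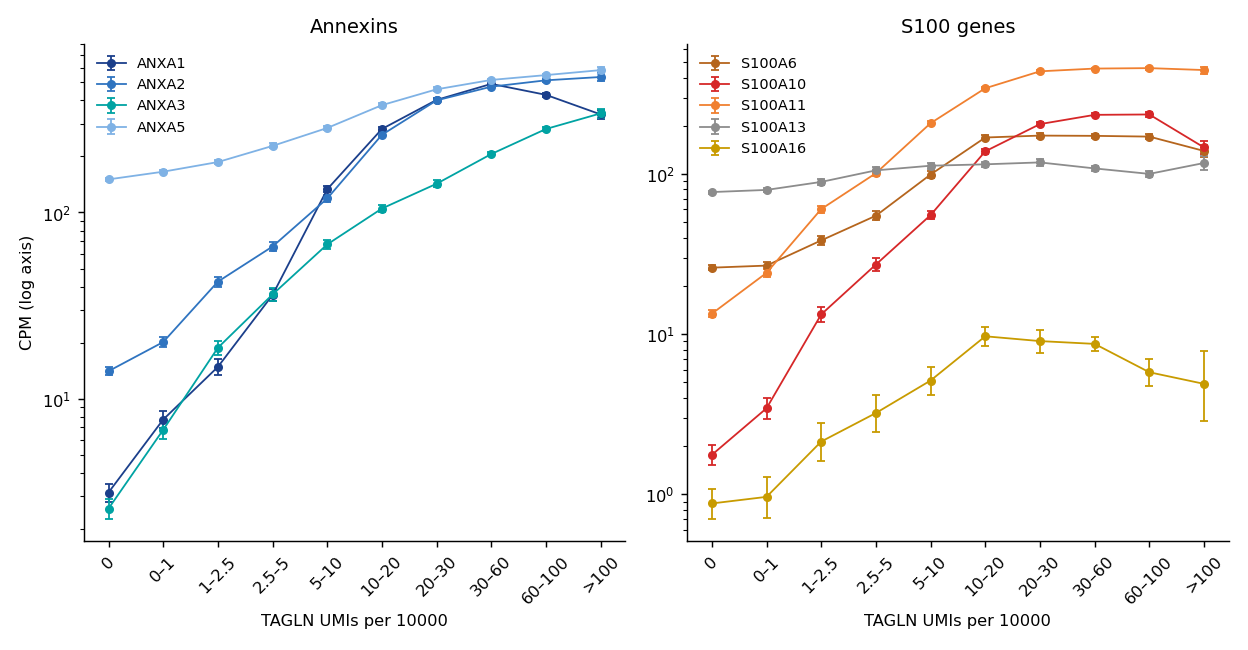
Level of the 4 annexins (left) and the 5 S100 genes (right) in CPM on a log axis, over 10 steps of TAGLN UMIs per 10000 from 0 to above 100; points are pooled cells of 1 library and bars are 95% Poisson intervals. ANXA1 and S100A10 pass a maximum and are lower above 100, at 336 and 146 CPM, whereas ANXA3 is highest there at 340.5 CPM.

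Shares of cells gave the spread that pooled levels hide. In the highest band ANXA5 was found in 99.7% of cells, ANXA3 in 98.4%, ANXA2 in 95.8%, S100A13 in 94.1%, S100A11 in 89.9%, ANXA1 in 77.2%, S100A6 in 77.1%, S100A10 in 50.6% (47.9 to 53.2%) and S100A16 in 16.8%. S100A10 and ANXA3 had about the same pooled level in this band, 229 and 236 CPM, and were spread over the cells quite differently. The median cell of the band held 1 S100A10 UMI and the highest held 341, whereas the median for ANXA3 was 9 and the highest 40.
In cells thinned to 5000 UMIs, the 353 of 1412 cells with the most S100A10 held 95.1% of its UMIs, against 58.7% for ANXA3 and 51.7% for ANXA5. The variance over the mean of the thinned counts was 4.17 for S100A6, 4.05 for S100A10, 3.96 for S100A11 and 3.20 for ANXA1, and it was 1.19 for ANXA3 and 1.27 for S100A13, where 1 is counting error alone. The thinned share of cells with S100A10 was 29.5% in the highest band and 1.33% in the lowest. At least 5 of the 9 genes were found in 50.3% (47.6 to 52.9%) of the thinned cells of the highest band, and in 0.581% (0.446 to 0.744%) of those of the lowest.

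Free RNA can place UMIs in cells that do not use a gene. No cell type in this culture is known to lack all 9 genes, so the 63 neuron-like cells with at least 20 STMN2 UMIs per 10000 in the lowest TAGLN band, with a median of 12829 UMIs, were taken as a low reference. ANXA1 was found in 7.94% of them (2.63 to 17.6%), S100A10 in 9.52% (3.58 to 19.6%), ANXA2 in 6.35% (1.76 to 15.5%) and ANXA3 in 3.17%, and S100A16 in 0 of 63, which allows a share of up to 5.69% of cells with a UMI and does not limit cells that use this scarce gene. In the lowest TAGLN band, at a median of 16318 UMIs, the shares were 6.45% for ANXA1 and 3.76% for S100A10, below those of the reference, and 9.98% for ANXA3, within the interval of the reference (0.387 to 11.002%), so these shares over the whole band were not read as expression. The CPM of these 3 genes in the lowest band did not differ from that of the reference beyond counting error either, with ratios of 1.53 (0.654 to 4.72) for ANXA1, 1.53 (0.655 to 4.72) for ANXA3 and 0.745 (0.361 to 1.86) for S100A10. The 0 S100A16 UMIs of the reference cannot place the 1.28 CPM of that gene in the lowest band, on which its ratio of 5.92 rests. The ratios of ANXA1, ANXA3 and S100A10 between the extreme bands, 52.0, 26.6 and 37.8, therefore have a denominator that over the whole band was not told apart from the reference. It was not read as a measure of expression. Part of it came from cells above the reference. Those with 2.5 to 5 TAGLN UMIs held 662 of 1736 ANXA1, 666 of 1737 ANXA3 and 499 of 1184 S100A10 UMIs. They were at 36.1, 36.3 and 27.2 CPM, against 5.81, 5.81 and 8.13 CPM in the reference. The reference was not the lowest level in the library. In the 6180 cells with no TAGLN UMI the 3 genes were at 3.13, 2.57 and 1.76 CPM, each below the value of the reference. The reference can thus lie above the level of free RNA, and the part of free RNA in the lowest band was not tested. The shares of cells with ANXA2 (24.97%), S100A6 (34.8%) and S100A11 (22.6%) lay above the reference. ANXA5 and S100A13 were at 72.0 CPM (55.2 to 92.4) and 75.5 CPM (58.3 to 96.3) in the reference cells, so S100A13 was as high there as in the whole lowest band.

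Within the highest band the members varied together to different degrees. Over its 1412 thinned cells, Pearson's r between S100A10 and S100A11 was 0.603, between ANXA2 and S100A10 0.532, between S100A6 and S100A10 0.506, between ANXA1 and S100A10 0.503 and between ANXA1 and ANXA2 0.495. Over all 10 pairs of these 5 genes the values went from 0.305, for ANXA1 with S100A6, to 0.603. Those of ANXA5 with them went from 0.220 with S100A6 to 0.341 with S100A11 and so overlapped this range, and those of S100A13 and S100A16 with them were lower. ANXA3 had values below 0 with all 8 other members, from -0.142 with S100A10 to -0.021 with S100A13. Its value with TAGLN was 0.221, those of ANXA5 and ANXA2 were 0.108 and 0.103, and those of the other members went from -0.058 for S100A16 to 0.052 for S100A13. The cells come from 1 library and share its free RNA, and thinning made their depth equal. In sparse counts low values such as those of ANXA3 describe these cells and are no finding. In the lowest band the median over the 36 pairs was 0.061, and the highest pair was again S100A10 with S100A11, at 0.280.

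**Figure D4:**
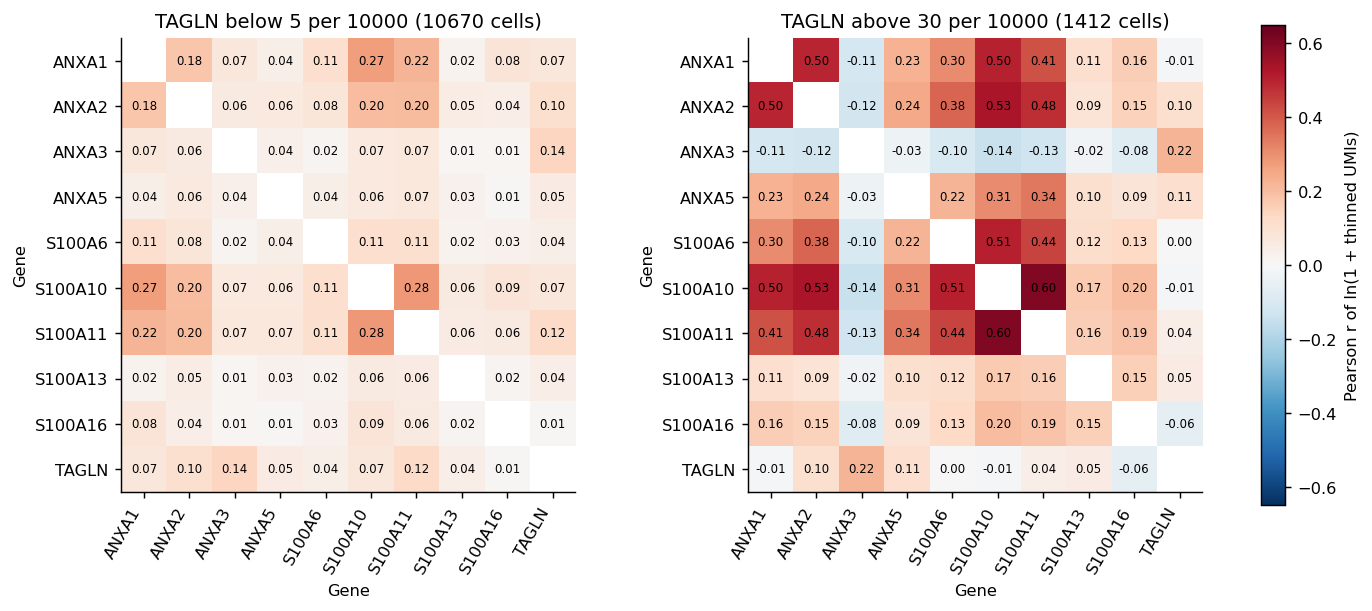
Pearson's r of ln(1 + UMIs) between the 9 genes and TAGLN over cells thinned to 5000 UMIs, in the lowest (left, 10670 cells) and the highest (right, 1412 cells) TAGLN band; red is positive and blue negative. In the highest band the pairs among ANXA1, ANXA2, S100A6, S100A10 and S100A11 have values from 0.305 to 0.603, and the row of ANXA3 is below 0 except with TAGLN.

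The genes that went most with S100A10 within the highest band, looked up after its uneven spread had been seen, were, after S100A11, the fatty acid carrier FABP5 (0.600), the caveolar coat gene CAV1 (0.546), ANXA2 and the secreted matrix protein SPP1 (0.529). Those that went most against it among 9416 genes were DLK1 (-0.507), a membrane protein of the Notch ligand family, LTBP1 (-0.462), which binds latent TGF-β, and GPC3 (-0.404), a glypican. For ANXA3 the highest values were those of TAGLN and TPM1 (0.189), an actin-bound tropomyosin, and all its values were weak.

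The balance of the S100A10 and ANXA2 pair also moved. In the lowest band there were 25.1 S100A10 UMIs per 100 ANXA2 UMIs (23.6 to 26.8), and in the next bands 46.5 (43.2 to 50.2), 52.0 (50.5 to 53.6) and 46.9 (46.0 to 47.9). The first value rests on lowest-band UMIs of S100A10, which over the whole band were not above the low reference (6.06 CPM against 8.13 CPM). Cells with no TAGLN UMI held less S100A10 than that reference, at 1.76 CPM. The part of free RNA in the first value was not tested, so it was not read as a measure of expression. In the 3 upper bands there were fewer S100A10 than ANXA2 UMIs.

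A split of the highest band by WLS, which encodes the carrier of Wnt proteins to the cell surface, put ANXA3 on the other side from the 8 other members. The 67 cells with at least 1 WLS UMI per 10000 had a median of 58246 UMIs, and the other 1347 had 40948; Scrublet, a doublet caller, marked 1 of the 67. ANXA3 was lower in the WLS cells, at 136 CPM (124 to 148) against 243 CPM, a ratio of 0.558 (0.511 to 0.610). S100A10 was higher, at 589 CPM (565 to 614) against 206 CPM, a ratio of 2.86 (2.73 to 2.99), and so was S100A16, at 28.8 CPM (23.7 to 34.7) against 6.20 CPM, a ratio of 4.65 (3.72 to 5.77). The ratios of S100A6 and S100A11 were 2.35 and 2.32, that of ANXA1 2.02, that of ANXA2 1.90, that of S100A13 1.65 and that of ANXA5 1.34. Of the 9 genes, 5 were at least 2-fold higher, against 2.81% of 12080 genes. S100A10 was found in 95.5% of the WLS cells and ANXA2 in all 67. The pair stood at 66.9 S100A10 per 100 ANXA2 UMIs (63.4 to 70.6), against 44.4 (43.5 to 45.4) in the other cells. TAGLN itself was lower in the WLS cells (4289 against 5827 CPM). Markers of other cell types moved with the split, and their part in it was not tested. Mesenchyme genes summed to 318 CPM in the WLS cells against 115 CPM, with 3 of the 4 measured at least 2-fold higher and 1 lower, amnion-like genes to 20.96 against 8.17 CPM, and 3 of 8 neural progenitor genes were at least 2-fold lower (946 against 1189 CPM in all). After thinning, the ratio was 0.490 (0.350 to 0.668) for ANXA3, 3.52 (3.00 to 4.11) for S100A10 and 9.12 (4.61 to 17.3) for S100A16.

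Levels also differed between cell cycle phases, called from S and G2/M genes in thinned cells. In the highest band S100A6 was at 138 CPM in G2/M cells and 265 CPM in G1 cells, a ratio of 0.522 (0.498 to 0.547), and 0.599 (0.516 to 0.697) after thinning. S100A11 was at 433 and 604 CPM, a ratio of 0.716 (0.696 to 0.737). ANXA1 and ANXA3 were not lower in G2/M in that band, with ratios of 1.07 (1.04 to 1.10) and 1.18 (1.13 to 1.23). In the lowest band the G2/M ratios were 0.587 for S100A11, 0.702 (0.627 to 0.786) for ANXA1, 0.732 (0.633 to 0.846) for S100A10 and 0.787 for S100A6, so ANXA1 lay on the other side of 1 there. After thinning these were 0.660 (0.572 to 0.761), 0.681 (0.505 to 0.915), 0.711 (0.479 to 1.05) and 0.791 (0.695 to 0.900), and the interval of S100A10 included 1. The share of cells with ANXA1 or S100A10 in this band was not above the free RNA reference. G2/M cells of the highest band had a median of 50882 UMIs and G1 cells 32885.

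A set of 189 kept cells had a mitochondrial share below 0.01. They had a median of 9536 UMIs, against 18034.5 in the other 13736 kept cells, and 93 of them were in the highest TAGLN band, 26 in the next, 14 in the band from 5 to 10 and 56 in the lowest. All 9 genes were at least 2-fold higher in these cells in CPM, against 2.68% of 16780 genes that were 2-fold higher and 34.9% that were 2-fold lower. The members were chosen with this contrast known. Together they stood at 3162 CPM (3082 to 3243) against 1055 CPM (1051 to 1058), a ratio of 3.00 (2.92 to 3.08). As UMIs per cell the summed ratio was 1.30. S100A16 was then at 2.22, and the other members went from 0.934 for S100A13 to 1.87 for S100A10. After thinning the summed ratio was 4.91 (4.72 to 5.10).
In pooled CPM the highest ratios were those of S100A16, S100A10 and S100A11. S100A16 was at 18.7 CPM (13.04 to 26.04) against 3.66 CPM, a ratio of 5.11 from 35 UMIs, S100A10 at 308 CPM (283 to 334) against 71.5 CPM, a ratio of 4.30 (3.95 to 4.67), and S100A11 at 668 CPM (632 to 706) against 165 CPM, a ratio of 4.04 (3.82 to 4.28). S100A6 followed with 3.57 and ANXA1 with 3.20. The smallest ratios were those of ANXA3 (2.41), ANXA5 (2.30) and S100A13 (2.15). After thinning the order was S100A10 (11.7, 10.3 to 13.3), S100A11 (8.14, 7.47 to 8.86), S100A16 (7.69, 4.10 to 13.3) and ANXA1 (6.85). S100A6 (5.77), ANXA2 (5.44), ANXA3 (4.12), ANXA5 (3.08) and S100A13 (2.22) followed.

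The summed ratio was smaller at equal TAGLN. With the other kept cells weighted to the same shares of cells per TAGLN band, which was tried once the values were known, the summed ratio was 1.49. Single ratios then went from 0.968 for ANXA3 to 2.87 for S100A16. These weights match cells and not UMIs. The other cells of the highest band were deep, so that band held a larger share of their weighted UMIs, and these values are not ratios at equal TAGLN. Within the highest band the 9 genes were at 4643 CPM (4510 to 4778) in the 93 cells and 2654 CPM in the other 1321, a ratio of 1.75 (1.70 to 1.80). There 5 of the 9 were at least 2-fold higher, against 1.11% of 12080 genes higher and 31.5% lower, and the 5 were the S100 genes. S100A6 was at 428 CPM (388 to 470) against 166 CPM, a ratio of 2.57 (2.33 to 2.83), and S100A13 at 237 CPM (208 to 269) against 104 CPM, a ratio of 2.28 (1.99 to 2.59). S100A16, S100A11 and S100A10 were at 3.56, 2.17 and 2.16. The annexins had smaller ratios, with 1.59 for ANXA1, 1.55 for ANXA5, 1.43 for ANXA2 and 1.10 (0.971 to 1.25) for ANXA3, whose levels did not differ beyond counting error. As UMIs per cell the summed ratio within the band was 0.406, since the cells with few mitochondrial UMIs had a median of 9911 UMIs there and the others 43729.
Within the lowest band 5 of the 9 genes were at least 2-fold higher, against 4.34% of 15710 genes higher and 26.3% lower, and they were not the same 5. ANXA1 was at 3.97, ANXA2 at 2.75 and ANXA3 at 2.56, each from 32 UMIs or fewer, beside S100A10 and S100A11 (3.89), while S100A6 was at 1.89, S100A13 at 1.71 and S100A16 at 1.61 from 1 UMI. S100A10 was at 47.4 CPM (30.04 to 71.1), from 23 UMIs in 56 cells, against 5.96 CPM in the other 10639, a ratio of 7.95 (5.02 to 11.99), and the summed ratio was 2.20 (1.98 to 2.43). Lowest-band levels of ANXA1, ANXA3 and S100A10 were not told apart from the free RNA reference, so their ratios here are not folds of expression. After thinning S100A10 was at 16.96 (8.86 to 29.8) and ANXA1 at 6.28 (2.69 to 12.5). ANXA3 was then at 2.39 (0.649 to 6.18), an interval that included 1. In pooled CPM the bands between gave smaller ratios, 1.18 (1.01 to 1.36) from 5 to 10, with 14 cells, and 1.44 (1.33 to 1.55) from 10 to 30, with 26 cells. After thinning the summed ratios of these bands were 1.83 (1.49 to 2.22) and 2.08 (1.88 to 2.31). Those within the lowest and the highest band were then 2.63 (2.28 to 3.02) and 1.98 (1.89 to 2.07), so the order of the bands depended on thinning. From 5 to 10 the pooled ratios of 6 of the 9 genes were below 1, from 0.484 (0.194 to 0.9997) for S100A6 to 0.927 (0.529 to 1.51) for ANXA2, and from 10 to 30 that of ANXA2 was 0.873 (0.675 to 1.11). After thinning only S100A6 (0.392) and S100A13 (0.829) stayed below 1 from 5 to 10. There ANXA1 was at 2.16 (1.06 to 3.93), S100A11 at 1.66, ANXA3 at 1.16 and ANXA2 at 1.06. From 10 to 30 the thinned ratio of ANXA2 was 1.38 (0.978 to 1.88). The pair stood at 71.0 S100A10 per 100 ANXA2 UMIs (63.7 to 79.1) in all cells with a mitochondrial share below 0.01 and at 45.7 (44.97 to 46.4) in the others.

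Other RNA classes moved with the mitochondrial share. Ribosomal protein genes took 22.0% of the UMIs of the 189 cells and 13.8% of those of the others. The nuclear RNAs MALAT1 and NEAT1 were at 8947 and 73.8 CPM against 10677 and 326 CPM. AHNAK, a large protein bound by the S100A10 and ANXA2 complex, and SYT1, a calcium sensor that binds S100A13, were at 11.2 and 116 CPM against 41.0 and 584 CPM, and CACYBP, which binds S100A6, was at 242 against 121 CPM. CACYBP lay just under 2-fold. Of the 9 partners measured, 1 was at least 2-fold higher, FGF1 (6.95 against 2.96 CPM, from 13 UMIs), and 2 were at least 2-fold lower, AHNAK and SYT1. Contractile genes summed to 8632 against 4018 CPM, with 6 of 7 at least 2-fold higher, and the dissociation genes to 149.8 against 115.5 CPM, with 0 of 7. Epithelial genes summed to 658 against 313 CPM, with 2 of 4 at least 2-fold higher, neural progenitor genes to 1000.3 against 1721 CPM, with 3 of 8 lower, neuron genes to 54.6 against 104 CPM, with 3 of 5 lower, and mesenchyme genes to 28.9 against 55.9 CPM. Of the other S100 genes, 3 of the 4 with enough UMIs were at least 2-fold higher and 1 was lower. In the 189 cells S100A2, S100A3 and S100B were at only 2.67, 3.21 and 1.07 CPM, so their calls rest on few UMIs there. The part of these shifts, of the lower depth and of the small number of cells in the members' values was not tested.

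**Figure D5:**
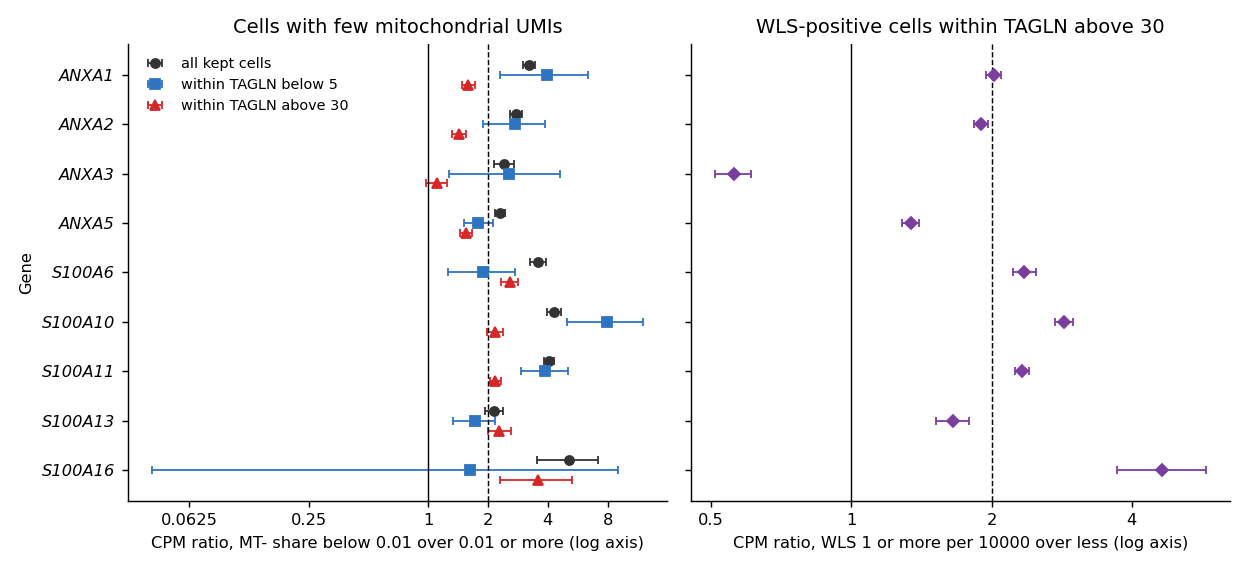
Ratio of CPM (log axis) for each of the 9 genes, with 95% counting intervals: left, cells with a mitochondrial (MT-) share below 0.01 over the other kept cells, over all cells and within the lowest and highest TAGLN bands; right, WLS cells over the other cells of the highest TAGLN band. The dashed line marks 2-fold; within the highest band the 5 S100 genes lie above it on the left, and on the right ANXA3 alone lies below 1, at 0.558.

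Apart from ANXA11, the rest of both families was scarce or less than 2-fold apart between the extreme TAGLN bands. Among the scarce ones, S100A2 and S100A3 were more than 2-fold higher and S100B more than 2-fold lower in the highest band. The member S100A16, at 7.58 against 1.28 CPM, was scarce as well, so a higher level was not particular to the members. Of the other 9 annexins, 4 had at least 200 UMIs in kept cells, and only ANXA11, which tethers RNA granules to lysosomes, was at least 2-fold higher in the highest TAGLN band (22.9 against 8.43 CPM). ANXA4, ANXA6 and ANXA7 were at 11.4, 28.9 and 39.9 CPM against 9.28, 23.3 and 29.8 CPM. Of the other 15 S100 genes, 4 had at least 200 UMIs, and the calgranulins S100A8 and S100A9 had none. S100A2 was at 2.85 against 0.184 CPM, S100A3 at 2.79 against 0.108 CPM and S100A4 at 23.0 against 15.3 CPM. S100B, a glial S100 gene, was lower, at 1.09 against 2.62 CPM. In all, 4 S100 genes and 1 annexin gene had no UMI in the kept cells.

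Most measured partners of the members were also higher in the highest TAGLN band. Of 14 genes listed as binding partners or clients, 9 had at least 200 UMIs over the extreme bands, 6 were at least 2-fold higher in the highest band and 0 were 2-fold lower. Of all 16297 genes with that many UMIs, 7.03% were at least 2-fold higher. The partner list summed to 1005 against 782 CPM. AHNAK was at 128 against 9.08 CPM, the urokinase gene PLAU at 28.1 against 3.31 CPM, and FGF1, the growth factor released with S100A13, at 8.78 against 1.21 CPM. CACYBP was at 148 against 109 CPM, and SYT1 at 436 against 641 CPM. Of 13 genes of membrane repair and caveolae, 11 had at least 200 UMIs and 6 were at least 2-fold higher, among them the dysferlin relative MYOF (64.5 against 3.03 CPM), CAV1 (237 against 3.75 CPM), CAVIN1 (154 against 1.89 CPM) and the calpain subunit CAPN2 (139 against 40.4 CPM). CHMP4B, an ESCRT subunit, was even (60.5 against 60.7 CPM). These lists were chosen with earlier results of the library known, so nothing is read from their counts. Their median ratios, 4.73 and 2.66, stand beside 0.786 over all genes.

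Markers of other cell types moved with TAGLN as well, and their part in the members' values was not tested. Of the mesenchyme genes, 3 of the 5 with enough UMIs were at least 2-fold higher in the highest band, and the list summed to 128 against 18.4 CPM, with DCN at 0 in the highest band. The epithelial list summed to 638 against 160 CPM, through KRT8 and KRT18, with KRT5 at 0. EPCAM and KRT19 were lower in the highest band, at 3.48 and 19.4 CPM against 5.12 and 29.3 CPM. CDH1 was near the floor, at 0.304 against 0.189 CPM. Endothelial genes summed to 31.0 against 16.2 CPM, amnion-like genes to 8.96 against 1.56 CPM with HAND1 at 0 in both bands and GABRP at 0 in the highest, and endoderm genes to 8.36 against 0.143 CPM with FOXA2 at 0. Genes that respond to dissociation summed to 177 against 80.1 CPM, with 3 of 7 at least 2-fold higher. Neuron, neural crest and immune lists were lower in the highest band, at 70.1, 11.3 and 1.57 CPM against 126, 94.1 and 6.94 CPM, with FOXD3 at 0 in the highest.

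The genes most like the members were found by the correlation of ln(1 + UMIs) with their summed UMIs over the 13897 thinned cells, among 10035 genes. These were TAGLN (0.627), ANKRD1 (0.620), TMSB4X (0.595), VIM (0.571), CYTOR (0.556), CTGF (0.554), TPM1 (0.549), TFPI2 (0.547), CALD1 (0.544) and MYL9 (0.542). The members were chosen with their level in cells rich in TAGLN known, so the place of TAGLN and contractile genes is not a result. Within the 10670 thinned cells of the lowest band the values were weak, from FTL (0.155) and TMSB4X (0.154) down to KRT18 (0.109) and PFN1 (0.107), with TMSB10, FTH1, VIM, ACTG1, ACTB and TAGLN (rank 8, 0.125) between them.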

How the data were processed

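The authors deposited raw UMI counts per gene and barcode for 1 10x Chromium 3′ library, made with Cell Ranger 7.0.1 at default settings on GRCh38, with barcodes not called as cells removed. The annotation version and the strand setting are not given in the sources used here. Barcodes with 2000 to 10000 genes and a mitochondrial share below 0.1, read as a fraction, were kept. Levels are pooled CPM with exact Poisson 95% intervals, ratios carry exact conditional intervals and shares Clopper-Pearson intervals. A gene was called at a 2-fold ratio with at least 200 UMIs over both sets. No test was run, since cells are not replicates. Cells were thinned to 5000 UMIs, which left out 28. Scrublet (in scanpy 1.11.5) marked 222 of 14726 barcodes; none were removed. All barcodes carried 1 suffix, with no barcode repeated. Phases used 42 S and 52 G2/M genes of Seurat 5.3.0. Named genes were all members, listed relatives with at least 200 UMIs, and the 10 most alike. Listed partners and membrane repair genes past that limit were named only in part, so an unnamed one need not be scarce. Members and lists were chosen with earlier results of these data known. Intervals and ratios were checked on simulated pooled Poisson counts. These hold no spread between cells, so the check covers the arithmetic of counting error only. Scripts ran in Python 3.11.15 with scipy 1.17.1, pandas 2.3.3 and numpy 2.4.6. RefSeq promoter windows matched all 9 genes. Alternatives changed scaling, depth, averaging, cell filter, limits and doublets. The values of 1 listed partner are not reported here.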

Additional observations from a re-analysis of the deposited data

How the results depend on the processing

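The summed ratio between the highest and the lowest TAGLN band was 7.50. It was 18.1 as UMIs per cell, 7.20 after thinning to 5000 UMIs, 4.97 in cells with 20000 to 40000 UMIs, 7.36 as a mean of per-cell CPM, 9.85 with median-of-ratios scaling, 8.33 for TAGLN above 60 over below 2.5, 7.70 without the top 8% of Scrublet scores and, chosen after seeing the data, 7.43 without cells with a mitochondrial share below 0.01. The other 2 alternatives, no cell filter and removal of the barcodes that Scrublet marked (the latter also chosen after seeing the data), stayed within the counting interval. The count of members past 2-fold was 8 (7.03% of 16297 genes), or 9 as UMIs per cell, where the share of all genes was not worked out. No member of this contrast turned direction under the alternatives run. The summed ratio of cells with a mitochondrial share below 0.01 was 3.00. It was 1.30 as UMIs per cell, 2.85 without mitochondrial UMIs in the totals, 4.91 after thinning and 4.71 as a mean of per-cell CPM. With limits of 0.005 and 0.02 it was 3.21 and 2.54, and within the lowest and the highest TAGLN band 2.20 and 1.75. With the other cells weighted to the same shares of cells per band, an alternative chosen after seeing the data, it was 1.49. Its count of members past 2-fold was 9 (2.68% of 16780 genes), with 1 as UMIs per cell, 5 within the lowest band (4.34% of 15710 genes), 5 within the highest (1.11% of 12080), 7 with a limit of 0.02 (ANXA5 at 1.97 and S100A13 at 1.70) and 1 with the weights. The share of all genes was not worked out per cell, with the limit of 0.02 or with the weights, so nothing is read from those counts. Turned in direction were ANXA5 (0.997) and S100A13 (0.934) as UMIs per cell and ANXA3 (0.968) with the weights. The weights match shares of cells and not of UMIs, so the turn of ANXA3 is not read as one at equal TAGLN. The cells with few mitochondrial UMIs were shallower, which lowers UMIs per cell, and the cause of the other shifts was not tested. Without replicates no spread between cultures is known, and S100A16 had the fewest UMIs of the members, 1180 in all kept cells. No paired analysis was possible because there is 1 library.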
